A study of Mus musculus with 12 samples.

Results

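The genes described here are 9 genes of fluid and bicarbonate secretion by the pancreatic duct: Cftr, Slc26a6, Slc4a2, Slc4a4, Slc12a2, Car2, Aqp1, Aqp3 and Aqp5. They were taken by name out of 53715 gene identifiers, and all 9 passed the filter on low counts that left 14473 genes for testing. RNA was sequenced from epithelial organoids of mouse pancreatic ductal adenocarcinoma in 2 lines, mT6 and mT69a, with 2 libraries in each of 6 groups. All organoids came from tumours of strain C57/Bl6 and carried Trp53LSLR172H/LOH and Pdx1-Cre, in which Cre under the Pdx1 promoter activates mutant Trp53 in cells of the pancreatic lineage and the other Trp53 copy is lost. In each line, the SPDEF-OE group was an Spdef knock-out clone (KO1) with an SPDEF over-expression vector. The knockout group was the KO1 clone with the Empty vector, and the control group was a clone with an mRosa26 knock-out and the Empty vector. Each line thus had 1 knockout clone and 1 control clone, so, in a given line, effects of Spdef loss and of clonal origin cannot be told apart. The series is about deletion and return of SPDEF, a DNA-binding factor of the ETS family that drives mucus secretion.

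Duct cells of the pancreas secrete a bicarbonate-rich fluid that carries digestive enzymes to the gut. Bicarbonate enters the cell from the blood side by sodium-coupled cotransport or is made inside by carbonic anhydrase, and leaves at the lumen through an anion channel and chloride-bicarbonate exchangers. Secretagogues acting through cyclic AMP open the channel CFTR, and water follows the ions through aquaporins and between the cells.

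Libraries held 9094295 to 28903831 expected counts. The mitochondrial share of counts was 12.7% to 15.5% for replicate 1 of each group and 18.6% to 27.1% for replicate 2. Spdef itself had 0 and 2 counts in the mT6 knockout libraries, against 30 and 29 in the mT6 controls, a ratio of control to knockout of 22.7 in summed counts scaled to depth (95% counting interval 6.01 to 192). In mT69a the knockout held 2 counts and the control 6, so a loss was not detectable there at this depth (ratio 2.93, 0.523 to 29.7). Mouse Spdef stood at 0 to 2 counts in each of the 4 libraries labelled SPDEF-OE, so what is said of them rests on that label. The summed level of 9 duct cell markers was 2230 to 5090 TPM (a level corrected for transcript length and library size), and 8 of the 9 passed 3 counts in every group. Summed endocrine markers reached at most 0.09 TPM, with 6 of 8 at 0 in all 12 libraries, and summed acinar markers at most 2.30 TPM, with 7 of 13 at 0. Of the acinar markers, 11 of 13 reached at most 3 counts in any library. Bhlha15 reached up to 97 counts and 1.5 TPM, and Cela1 up to 10 counts and 1.22 TPM. The acinar sum was 0.4 to 1.15 TPM in the mT6 knockout, against 1.68 to 2.3 TPM in its control, and 0.22 to 0.47 TPM in the mT69a knockout, against 0.96 to 1.07 TPM in its control; its part in the results was not tested. Endothelial, erythroid and fibroblast markers summed to at most 1.27 TPM and immune markers to 2.13 to 14.5 TPM. Most of the immune sum was Cd68 (2.1 to 14.2 TPM), while Ptprc reached at most 0.12 TPM and Adgre1 and Cd3e were at 0 in all libraries. The immune sum was 7.43 to 14.5 TPM in the mT69a knockout, against 4.12 to 5.2 TPM in its control, and its part in the mT69a results was not tested. In bulk RNA, fewer cells of a type and less RNA per cell cannot be told apart.

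By TPM, Aqp5 was the most abundant of the 9 in every library, at 106 to 542 TPM, and Slc12a2 lay at 29.2 to 79.6 TPM. Slc4a2 lay at 10.1 to 25.4 TPM, Slc4a4 at 2.26 to 13.8 TPM and Cftr at 1.38 to 11.4 TPM. Car2 had a wider range, 4.01 to 58.2 TPM, and lay above Slc12a2 in the 4 mT69a SPDEF-OE and knockout libraries. Aqp1 was listed at 0 in one library and reached 20.5 TPM in another. Aqp3 lay at 3.83 to 18.3 TPM and Slc26a6 at 0.69 to 4.32 TPM.

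Differences were tested with edgeR's quasi-likelihood test on expected counts over all genes, with Benjamini-Hochberg adjusted p-values (two-sided, threshold 0.05) and log2 fold changes of the first-named group over the second. Averaged over the lines, 3 of the 9 genes passed in knockout against control, where 5.6% of all tested genes did: Aqp3 and Car2 rose and Aqp1 fell. For Car2 that average joined 2.96 in mT69a with -0.26 in mT6, where it did not pass. In SPDEF-OE against knockout, 1 of 9 passed (Aqp3, lower), against 7.77% of all genes. Within mT6, 1 of 9 passed in knockout against control (Aqp1, lower; 3.23% of all genes). Within mT69a, 4 of 9 passed in that comparison, against 8.6% of all genes: Car2 and Aqp3 rose, and Cftr and Slc12a2 fell. The change differed between the lines for 2 of 9, Car2 and Slc12a2 (6.62% of all genes). The genes that passed in mT69a thus had different roles: the lumen channel and the basolateral chloride loader fell while the anhydrase and 1 aquaporin rose.

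In SPDEF-OE against knockout, 0 of 9 passed in mT6, where 2.69% of all genes did, and 1 of 9 in mT69a (Aqp3, lower, against 4.25%). DESeq2 called 3 of 9 in mT6 and 575 of all genes there, against 389 in edgeR. For the difference of that change between the lines, 0 of 9 passed in edgeR, where 0.0138% of all genes did. With DESeq2, 0 of 9 passed as well, and 46 of all genes did, against 2 in edgeR. Unadjusted p in edgeR was under 0.05 for 3 of 9 in mT6 and for 2 of 9 in the difference between the lines. The share of all genes with such an unadjusted p is not given here. Against control, the SPDEF-OE libraries had 2 of 9 past the threshold in mT6 (Aqp1 lower, Aqp5 higher; 8.6% of all genes) and 3 of 9 in mT69a (Cftr lower, Car2 and Slc4a4 higher; 12.4%). Between the control clones, mT69a against mT6, 3 of 9 passed (Aqp5 higher, Aqp1 and Slc4a4 lower; 28.2%). The comparisons share libraries, so their counts are not independent.

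Libraries with the same number deviated together in every pair of groups, so a fit with the replicate number as a block was also read. With the block, more of all genes passed in each of the 11 comparisons, and more members in 8 of them. No member was added in the mT69a knockout against control, where 2320 of all genes passed, against 1244 without the block. The same held for SPDEF-OE against knockout in mT69a (1533 against 615 of all genes) and for its difference between the lines (55 against 2). Averaged over the lines, 5 of 9 passed in knockout against control, adding Cftr and Slc12a2 (15% of all genes). In SPDEF-OE against knockout it was 2 of 9, adding Slc12a2 (15.8%). In mT6 it was 2 of 9 in knockout against control, adding Slc4a2 (12.5%), and 1 of 9 in SPDEF-OE against knockout, Aqp5 (7.29%). For SPDEF-OE against control in mT6 it was 5 of 9, adding Slc4a2, Slc4a4 and Slc12a2 (19%). For mT69a against mT6 in the controls it was 5 of 9, adding Cftr and Slc26a6 (41.8%). For the difference between the lines in knockout against control it was 3 of 9, adding Cftr (15.2%), and for SPDEF-OE against control in mT69a it was 4 of 9, adding Slc12a2 (22.5%).

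**Figure D1:**
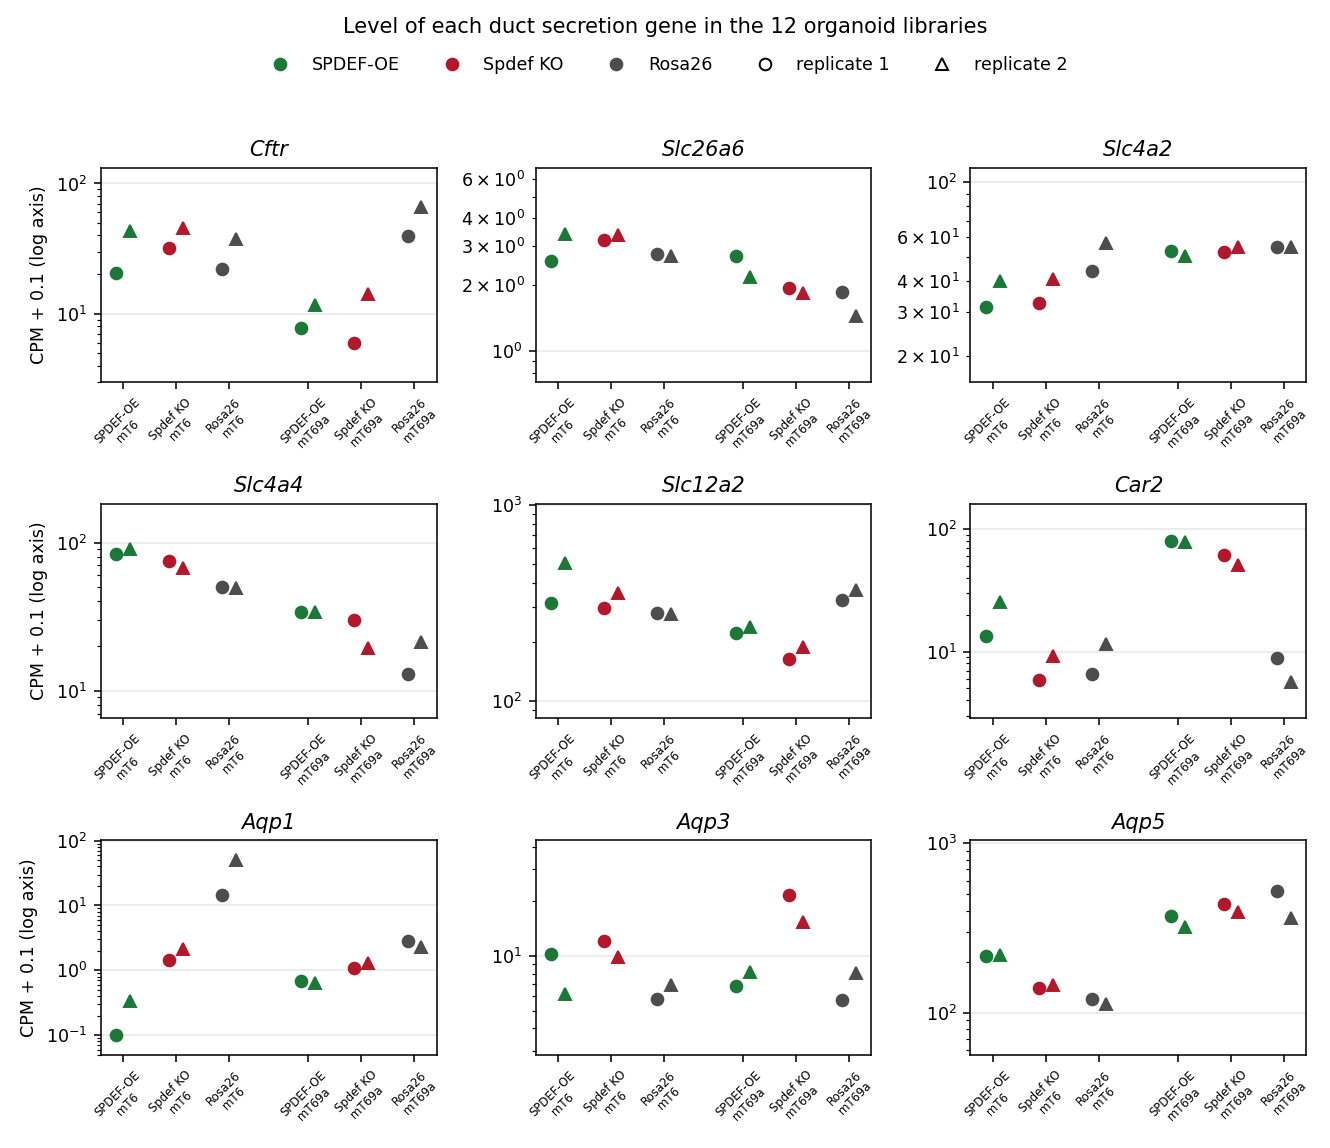
Level of each of the 9 genes in the 12 libraries, as CPM (counts scaled to library size by TMM factors) plus 0.1 on a log axis. Groups run SPDEF-OE, Spdef KO and Rosa26 within mT6 and then mT69a. Circles are replicate 1 and triangles replicate 2. Aqp1 lies at 1.33 and 2.07 CPM in the mT6 knockout, against 14.2 and 50.7 CPM in its control, and Aqp3 is highest in the mT69a knockout at 21.6 and 15.3 CPM. Car2 stands at 61.0 and 50.8 CPM in the mT69a knockout, against 8.75 and 5.59 CPM in its control.

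The promoters of Cftr, Aqp1 and Aqp3 are shown because these genes passed in a knockout comparison and have an upstream window free of annotated exons. Of the 9 genes, 7 had a window in the RefSeq promoter table (GRCm38.p6), with 9 windows of 250 bases before a start. Capitals mark GGAT on either strand (ATCC where it lies on the other strand), the core that SPDEF prefers over the GGAA of most ETS factors, and, in Aqp3, the TATA box TATAAA. The windows are chr6:18170437-18170686 on the plus strand for Cftr, chr6:55336049-55336298 on the plus strand for Aqp1 and chr4:41098184-41098433 on the minus strand for Aqp3. For Aqp1 the RefSeq start differs from that of its counted transcript, which begins downstream of the window, at position 55336432.
Cftr: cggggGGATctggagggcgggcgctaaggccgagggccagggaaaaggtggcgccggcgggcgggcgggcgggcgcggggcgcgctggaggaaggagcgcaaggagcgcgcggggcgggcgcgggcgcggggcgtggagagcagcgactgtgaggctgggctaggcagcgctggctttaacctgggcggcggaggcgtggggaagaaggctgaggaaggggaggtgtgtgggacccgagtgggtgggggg
Aqp1: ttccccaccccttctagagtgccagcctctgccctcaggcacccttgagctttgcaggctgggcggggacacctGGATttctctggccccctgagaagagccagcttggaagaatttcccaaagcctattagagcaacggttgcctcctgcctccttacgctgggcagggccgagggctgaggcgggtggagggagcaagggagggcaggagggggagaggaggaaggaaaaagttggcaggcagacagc
Aqp3: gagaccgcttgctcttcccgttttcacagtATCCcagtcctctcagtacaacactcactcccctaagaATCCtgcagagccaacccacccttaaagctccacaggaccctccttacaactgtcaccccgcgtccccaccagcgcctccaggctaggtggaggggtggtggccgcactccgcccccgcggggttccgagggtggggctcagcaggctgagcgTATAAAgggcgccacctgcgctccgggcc
GGAT or its complement was present once in the Cftr window, once in the Aqp1 window and 2 times in the Aqp3 window. It was also present in 74.1% of all 32851 windows of that length in the table, so its presence does not set these genes apart. The longer CCGGAT, which contains GGAT, was in none of the 9 windows and in 4.94% of all, and the cyclic AMP response element TGACGTCA was in none of the 9 and in 1.55% of all. The GGAA-type letters CCGGAA were in 1 of the 9, a window of Slc4a2, and in 12% of all. TATAAA stood 29 bases before the Aqp3 start, in none of the other windows and in 12.4% of all, both strands being searched. The Cftr window had a GC content of 76.4%, against 62.0% for Aqp1, 64.0% for Aqp3 and a median of 52.4% over all windows.

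Cftr (ENSMUSG00000041301.15, chr6:18170687-18322768, plus strand, GRCm38 by GENCODE M21) encodes the cyclic AMP-regulated anion channel of the duct lumen. In mT69a it had 7.66 and 11.5 CPM in the SPDEF-OE libraries, 5.86 and 14.0 CPM in the knockout libraries and 39.7 and 66.1 CPM in the controls. Both control libraries lay above all 4 others, which overlapped among themselves. In mT6 it had 20.4 and 43.0 CPM in the SPDEF-OE libraries, 32.0 and 45.4 CPM in the knockout and 21.8 and 37.7 CPM in the controls, and these 3 groups overlapped. Cftr fell 5.42-fold in the mT69a knockout (log2 fold change -2.44, SE 0.53, adjusted p = 0.0235), and its log2 ratio was -2.76 between the libraries numbered 1 and -2.24 between those numbered 2. Without mT69a knockout library 1 the adjusted p was 0.142, and without mT69a control library 2 it was 0.127. Without mT69a knockout library 2 the fold was 8.97. In mT6 the change was 0.38 (SE 0.49, adjusted p = 0.799). The difference between the lines was -2.82 (SE 0.72, adjusted p = 0.0547), and it passed with the block (-2.89, adjusted p = 5.54e-06). DESeq2 (-2.79, adjusted p = 0.000477) and limma on log2(TPM + 1) (-2.26, adjusted p = 0.0136) called it too. The average over the lines was -1.03 (SE 0.36, adjusted p = 0.152, with the block 6.38e-05 and with DESeq2 0.0261). It joins values of opposite sign in mT6 and mT69a.

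Cftr was higher in library 2 than in library 1 of all 6 groups, by 1.42 to 2.39 times. In SPDEF-OE against knockout it did not pass in mT6 (-0.29, SE 0.50, adjusted p = 0.92) or mT69a (-0.04, SE 0.54, 95% interval -1.26 to 1.18, adjusted p = 0.992). Against control, the mT69a SPDEF-OE libraries stood at -2.48 (SE 0.53, adjusted p = 0.0172). That call was lost without SPDEF-OE library 1 (0.149), SPDEF-OE library 2 (0.078) or control library 2 (0.0887), while the log2 ratios within the numbers were -2.37 and -2.52. By group mean, Cftr was highest in the mT69a control (52.9 CPM), followed by the mT6 knockout (38.7), mT6 SPDEF-OE (31.7), mT6 control (29.7), mT69a knockout (9.93) and mT69a SPDEF-OE (9.56). Neighbours in that order overlapped except for the mT6 control and the mT69a knockout. The controls of mT69a and mT6 differed by 0.82 (SE 0.49, adjusted p = 0.255; with the block 0.84 and 0.000848). Its most abundant transcript took 59.0% to 97.8% of the gene's TPM, and exons of the gene overlap Gm15592 on the other strand, whose reads cannot be told apart if strand was not used in counting.

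Slc26a6 encodes a chloride-bicarbonate exchanger of the lumen membrane that works beside CFTR (ENSMUSG00000023259.16, chr9:108853283-108913049, plus strand). It had 20 to 73 counts per library. Its level in mT6 was 2.45 and 3.29 CPM in the SPDEF-OE libraries, 3.10 and 3.25 CPM in the knockout and 2.67 and 2.61 CPM in the controls. Its level in mT69a was 2.61 and 2.07 CPM in the SPDEF-OE libraries, 1.83 and 1.74 CPM in the knockout and 1.75 and 1.35 CPM in the controls. The knockout overlapped the control in mT69a, and in mT6 lay just above it. In knockout against control its log2 fold change was 0.27 in mT6 (95% interval -0.37 to 0.90) and 0.20 in mT69a (-0.48 to 0.89), and it passed in no comparison without the block. Between controls, mT69a against mT6, it was -0.76 (SE 0.30, adjusted p = 0.0837), which passed with the block (0.049). A transcript that starts 56748 bases downstream of the nearest other start held 4.3% to 23.8% of its counts but 26.1% to 76.9% of its TPM, so its TPM rests in large part on 1 to 15 reads per library.

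Slc4a4 encodes the sodium-bicarbonate cotransporter NBCe1, which brings bicarbonate into the duct cell from the blood side (ENSMUSG00000060961.14, chr5:88886818-89239653, plus strand). Its mT6 level was 83.7 and 91.0 CPM in the SPDEF-OE libraries, 74.7 and 66.7 CPM in the knockout and 50.0 and 49.2 CPM in the controls. These 3 groups did not overlap. Its mT69a level was 33.8 and 33.8 CPM in the SPDEF-OE libraries, 29.7 and 19.2 CPM in the knockout and 12.9 and 21.2 CPM in the controls, where knockout and control overlapped. In knockout against control the log2 fold change was 0.51 in mT6 (SE 0.23, adjusted p = 0.291) and 0.53 in mT69a (SE 0.24, adjusted p = 0.254). The difference between the lines was 0.02 (95% interval -0.70 to 0.74, adjusted p = 0.994). Averaged over the lines the knockout change was 0.52 (SE 0.165, adjusted p = 0.106, with the block 0.0852). DESeq2 called that average (0.0488).

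Against control, Slc4a4 rose 1.98-fold in the mT69a SPDEF-OE libraries (0.99, SE 0.24, adjusted p = 0.0218), with ratios of 1.39 and 0.67 on the log2 scale between libraries numbered 1 and 2. The call was lost without SPDEF-OE library 1 (0.108), SPDEF-OE library 2 (0.0935) or control library 1 (0.145), and with limma on log2(TPM + 1), where the change was 0.67 (0.243). In mT6 the same comparison gave 0.82 (SE 0.23, adjusted p = 0.0553; with the block 0.0464). SPDEF-OE against knockout gave 0.31 in mT6 (SE 0.23, adjusted p = 0.702) and 0.46 in mT69a (SE 0.23, adjusted p = 0.401). Slc4a4 was lower in the mT69a control than in the mT6 control 2.91-fold (log2 fold change -1.54, SE 0.24, adjusted p = 0.00113), and all 6 mT69a libraries lay below all 6 mT6 libraries.

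Slc4a4 has an upstream start used in pancreas and an internal start used in kidney, which give proteins with different N-terminal ends. The submitters' transcript estimates put 206 to 1367 expected counts per library on transcripts from the upstream start, whose first bases lie from position 88886818 to 88887299 on chromosome 5. Transcripts from the internal start, at positions 89027966 to 89028092, had 0 to 13.7 expected counts and were at 0 in 2 of the 12 libraries. By TPM the upstream start held 95.1% to 100% of the gene in every library of both lines, at 2.26 to 13.7 TPM against 0 to 0.55 TPM for the internal one. The share estimated for the internal start rests on few reads, and its differences between libraries are not read.

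**Figure D2:**
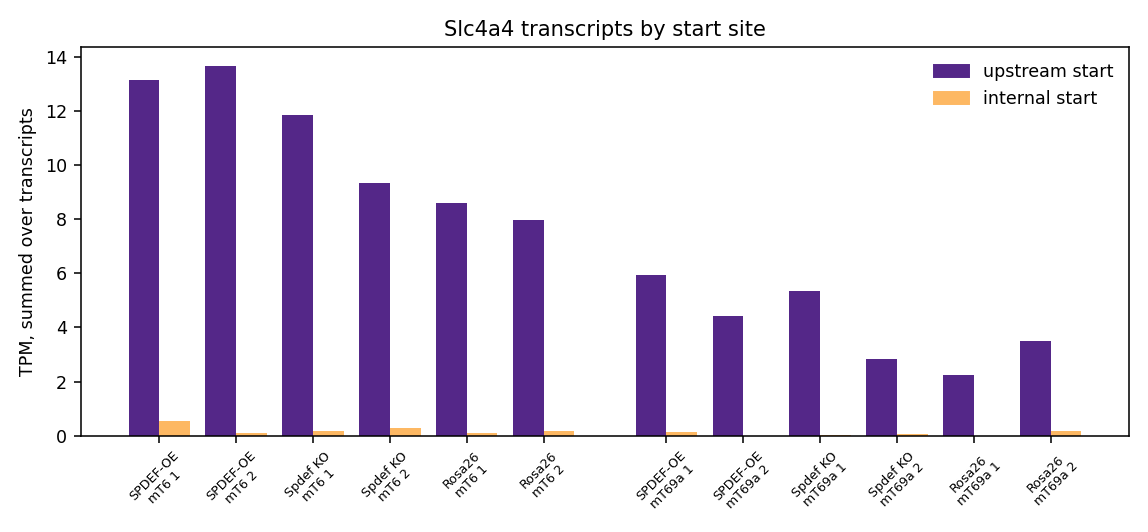
TPM of Slc4a4 summed over transcripts from the upstream start and from the internal start, 1 pair of bars per library, with groups in the order SPDEF-OE, Spdef KO, Rosa26 in mT6 and then mT69a. The upstream start holds 2.26 to 13.7 TPM and the internal start at most 0.55 TPM.

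Slc4a2 encodes AE2, a basolateral chloride-bicarbonate exchanger that counters alkaline load (ENSMUSG00000028962.14, chr5:24423837-24440950, plus strand). In mT69a it had 52.6 and 50.4 CPM in the SPDEF-OE libraries, 52.4 and 54.8 CPM in the knockout and 55.0 and 54.6 CPM in the controls. Its log2 fold change in knockout against control there was -0.03 (95% interval -0.40 to 0.33, adjusted p = 0.962), and all 6 libraries lay close together. In mT6 it had 31.4 and 40.0 CPM in the SPDEF-OE libraries, 32.5 and 40.7 CPM in the knockout and 44.0 and 57.1 CPM in the controls. Both mT6 controls lay above all 4 other mT6 libraries. The mT6 knockout change was -0.46 (SE 0.17, adjusted p = 0.176; with the block 0.0294), with ratios of -0.44 and -0.49 within the numbers, and SPDEF-OE against control there gave -0.50 (SE 0.17, adjusted p = 0.0992; with the block 0.0158). The difference between the lines in knockout against control, 0.43 (SE 0.23, adjusted p = 0.355), did not pass. Exons of Fastk and Gm22333 overlap the gene on the other strand.

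Slc12a2 encodes NKCC1, the sodium-potassium-chloride cotransporter that loads chloride into secretory epithelial cells at the basolateral side (ENSMUSG00000024597.10, chromosome 18). Its level in mT69a was 220 and 236 CPM in the SPDEF-OE libraries, 162 and 187 CPM in the knockout and 327 and 366 CPM in the controls. The 3 groups did not overlap, and the SPDEF-OE libraries lay between the others. Its level in mT6 was 314 and 504 CPM in the SPDEF-OE libraries, 296 and 352 CPM in the knockout and 280 and 278 CPM in the controls, so there the controls were lowest. Slc12a2 fell 1.99-fold in the mT69a knockout (-0.99, SE 0.20, adjusted p = 0.0125), with ratios of -1.01 and -0.97 within the numbers. The call was lost without knockout library 1 (0.12) or control library 2 (0.0846) and with limma on log2(TPM + 1) (-0.85, 0.0798). In mT6 the change was 0.22 (SE 0.20, adjusted p = 0.669).

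The knockout change of Slc12a2 differed between the lines by -1.21 (SE 0.28, adjusted p = 0.0298; with the block 0.00114). That difference did not pass when any of 8 of the 12 libraries was left out, with adjusted p of up to 0.114, nor with limma on log2(TPM + 1) (0.162). SPDEF-OE against knockout gave 0.33 in mT6 (SE 0.20, adjusted p = 0.587) and 0.39 in mT69a (SE 0.20, adjusted p = 0.411). Averaged over the lines it was 0.36 (SE 0.14, adjusted p = 0.183), which passed with the block (0.0242). Against control, the mT69a SPDEF-OE libraries were at -0.60 (SE 0.20, adjusted p = 0.0811; with the block 0.00674), and the mT6 ones at 0.55 (SE 0.20, adjusted p = 0.128; with the block 0.0173). The average over the lines in knockout against control, -0.39 (SE 0.14, adjusted p = 0.162; with the block 0.0164), joins changes of opposite sign.

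Car2 encodes carbonic anhydrase II, the cytosolic enzyme that turns carbon dioxide and water into bicarbonate and a proton (ENSMUSG00000027562.12, chr3:14886273-14900770, plus strand). Its mT69a level was 80.1 and 77.6 CPM in the SPDEF-OE libraries, 61.0 and 50.8 CPM in the knockout and 8.75 and 5.59 CPM in the controls. The lowest of the 4 libraries of the knockout clone was several times higher than both controls. Its mT6 level was 13.3 and 25.5 CPM in the SPDEF-OE libraries, 5.75 and 9.15 CPM in the knockout and 6.47 and 11.4 CPM in the controls, where knockout and control overlapped. Car2 rose 7.78-fold in the mT69a knockout (2.96, SE 0.38, adjusted p = 0.00117), with ratios of 2.80 and 3.18 within the numbers, and this call held in each fit without 1 library. In mT6 the change was -0.26 (SE 0.37, adjusted p = 0.816). The difference between the lines passed (3.22, SE 0.52, adjusted p = 0.00634). An average over the lines thus joins values of opposite sign. The average over the lines was 1.35 (SE 0.26, adjusted p = 0.0155), and it was lost without mT69a knockout library 1 (0.0581), mT6 knockout library 2 (0.0715) or mT69a control library 2 (0.0701).

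Both mT6 SPDEF-OE libraries had more Car2 than all 4 other mT6 libraries. SPDEF-OE against knockout gave 1.36 there (SE 0.38, adjusted p = 0.113), with ratios of 1.21 and 1.48 within the numbers, and 0.50 in mT69a (SE 0.34, adjusted p = 0.583). DESeq2 called the mT6 change (1.37, adjusted p = 0.00836). The average over the lines was 0.93 (SE 0.25, adjusted p = 0.0577), which DESeq2 (0.00476) and a fit of the compared libraries alone (0.0411) called. Against control, Car2 rose 11-fold in the mT69a SPDEF-OE libraries (3.46, SE 0.38, adjusted p = 0.000361), and in mT6 the value was 1.09 (SE 0.37, adjusted p = 0.107). By group mean the order was mT69a SPDEF-OE (78.8 CPM), mT69a knockout (55.9), mT6 SPDEF-OE (19.4), mT6 control (8.93), mT6 knockout (7.45) and mT69a control (7.17), and the last 3 overlapped. The controls of the 2 lines were thus close, -0.34 for mT69a against mT6 (95% interval -1.17 to 0.50, adjusted p = 0.547).

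Aqp1 encodes a water channel of pancreatic ducts that capillary endothelium and red cells also carry (ENSMUSG00000004655.5, chr6:55336432-55348555, plus strand). In mT6 it had 0 and 2 counts in the SPDEF-OE libraries, 15 and 42 counts in the knockout and 186 and 1419 counts in the controls, which is 0 and 0.235 CPM, 1.33 and 2.07 CPM, and 14.2 and 50.7 CPM. The 3 groups did not overlap, and the 2 controls differed 3.57-fold in CPM, control library 2 being the higher. In mT69a it had 0.593 and 0.541 CPM in the SPDEF-OE libraries, 0.968 and 1.22 CPM in the knockout and 2.75 and 2.22 CPM in the controls, again without overlap but from 6 to 44 counts per library. Aqp1 fell 18.6-fold in the mT6 knockout (-4.22, SE 0.58, adjusted p = 0.00503), with ratios of -3.42 and -4.61 within the numbers. The fold was 8.15 without mT6 control library 2 and 28.8 without mT6 control library 1, and both kept the call. The call was lost without mT6 knockout library 1 (0.0636) or library 2 (0.0582), and in a fit of the compared libraries alone (0.0859). In mT69a the change was -1.21 (SE 0.66, adjusted p = 0.372). Summed endothelial markers were at 0.08 to 0.17 TPM in the mT6 knockout, against 0.23 to 0.28 TPM in its control, where Aqp1 itself was at 6.40 and 20.5 TPM. Of the 7 endothelial markers, Emcn was at 0 in all 12 libraries, Cdh5, Cldn5, Pecam1 and Tek reached at most 3 counts and Kdr and Plvap at most 8 counts in a library. Of the red cell markers, the haemoglobin genes Hba-a1, Hba-a2, Hbb-bs and Hbb-bt reached at most 1 count and Alas2, an enzyme of haem synthesis, at most 8 counts. The part of these cells in the Aqp1 result was not tested.

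The difference of the Aqp1 change between the lines, 3.01 (SE 0.88, adjusted p = 0.0815), did not pass, although DESeq2 (0.00638) and limma on log2(TPM + 1) (0.0254) called it. The average over the lines was -2.71 (SE 0.43, adjusted p = 0.00592), and it held in each fit without 1 library, at -2.11 without mT6 control library 2. In summed counts scaled to depth, knockout exceeded SPDEF-OE by a ratio of 15.4 in mT6 (95% counting interval 4.07 to 130) and 1.86 in mT69a (0.989 to 3.62). The test of SPDEF-OE against knockout did not pass in mT6 (adjusted p = 0.164), in mT69a (adjusted p = 0.711) or on average (adjusted p = 0.0933). DESeq2 called the mT6 change (adjusted p = 0.0268) and the average (0.00733), and a fit of the compared libraries alone called the average (0.0377). Against control, the mT6 SPDEF-OE libraries were lower by a ratio of 333 in summed counts (92.1 to 2750), and the mT69a ones by 4.36 (2.52 to 8). In mT6, control library 2 held 1419 of the 1605 control counts. The edgeR test of that comparison gave -8.02 in mT6 (SE 0.90, adjusted p = 0.000854), from 2 SPDEF-OE counts in all. In mT69a it gave -2.11 (SE 0.73, adjusted p = 0.0987), which DESeq2 (0.0153) and a fit of the compared libraries alone (0.0115) called. The counting intervals cover counting error only. Aqp1 was 13.1-fold lower in the mT69a control than in the mT6 control (-3.71, SE 0.56, adjusted p = 0.00123). That fold was 5.66 without mT6 control library 2 and 20.2 without mT6 control library 1, and the log2 ratios within the numbers were -2.37 and -4.51.

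Aqp3 encodes an aquaglyceroporin of basolateral membranes, which passes glycerol as well as water (ENSMUSG00000028435.8, chr4:41092722-41098183, minus strand). Its level in mT69a was 6.77 and 8.12 CPM in the SPDEF-OE libraries, 21.6 and 15.3 CPM in the knockout and 5.63 and 7.95 CPM in the controls. Both knockout libraries were the highest of the series, and SPDEF-OE and control overlapped. Its level in mT6 was 10.2 and 6.10 CPM in the SPDEF-OE libraries, 12 and 9.74 CPM in the knockout and 5.71 and 6.86 CPM in the controls, where the knockout lay above the control but overlapped SPDEF-OE. Aqp3 rose 2.73-fold in the mT69a knockout (1.45, SE 0.28, adjusted p = 0.00856), with ratios of 1.94 and 0.94 within the numbers. That call was lost without mT69a control library 1 (0.0878) or knockout library 1 (0.0918). In mT6 the change was 0.78 (SE 0.28, adjusted p = 0.174), and the difference between the lines was 0.67 (SE 0.39, adjusted p = 0.392). The average over the lines was 1.11 (SE 0.19, 2.16-fold, adjusted p = 0.00787), and all 4 knockout libraries lay above all 4 control libraries.

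In the edgeR fit without the block, Aqp3 was the one gene of the 9 that passed in both averaged comparisons, and its direction in SPDEF-OE against knockout was the opposite one. With DESeq2, with no filter on low counts and in fits of the compared libraries alone, Aqp1 and Car2 passed in both as well. It fell 2.5-fold in the mT69a SPDEF-OE libraries (-1.32, SE 0.28, adjusted p = 0.0228), with ratios of -1.67 and -0.91 within the numbers, and by 0.87 on average (SE 0.20, adjusted p = 0.0236). In mT6 it was at -0.41 (SE 0.28, adjusted p = 0.662). The mT69a call was lost without knockout library 1 (0.196), SPDEF-OE library 1 (0.223) or SPDEF-OE library 2 (0.111). The average was lost in 5 of the 12 fits without 1 library: mT6 knockout library 1 (0.0751), mT69a knockout library 1 (0.105), mT69a SPDEF-OE library 1 (0.109), mT6 SPDEF-OE library 2 (0.0698) and mT69a SPDEF-OE library 2 (0.0605). Both comparisons share the knockout libraries, so a high value there moves them in opposite directions. Against control, SPDEF-OE was at 0.36 in mT6 (SE 0.29, adjusted p = 0.523) and 0.13 in mT69a (95% interval -0.50 to 0.75, adjusted p = 0.849).

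Aqp5 encodes a water channel of apical membranes in glands and in pancreatic ducts (ENSMUSG00000044217.17, chr15:99590782-99594829, plus strand). Its mT69a level was 372 and 319 CPM in the SPDEF-OE libraries, 440 and 394 CPM in the knockout and 520 and 364 CPM in the controls, where knockout and control overlapped. Its mT6 level was 216 and 220 CPM in the SPDEF-OE libraries, 139 and 146 CPM in the knockout and 121 and 113 CPM in the controls, and these 3 groups did not overlap. Every mT69a library was above every mT6 library, and the controls differed 3.78-fold (1.92, SE 0.17, adjusted p = 3.13e-05). In knockout against control the change was 0.29 in mT6 (SE 0.17, adjusted p = 0.448) and -0.08 in mT69a (95% interval -0.45 to 0.28, adjusted p = 0.87). SPDEF-OE against knockout gave 0.61 in mT6 (SE 0.17, adjusted p = 0.0976; with the block 0.00984) and -0.27 in mT69a (SE 0.17, adjusted p = 0.518), and the difference between the lines, -0.88 (SE 0.23), did not pass (adjusted p = 0.551). Against control, Aqp5 rose 1.87-fold in the mT6 SPDEF-OE libraries (0.90, SE 0.17, adjusted p = 0.00923), which was lost without mT6 control library 2 (0.0647) and with limma on log2(TPM + 1) (0.82, 0.219). In mT69a that comparison gave -0.35 (SE 0.17, adjusted p = 0.221).

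**Figure D3:**
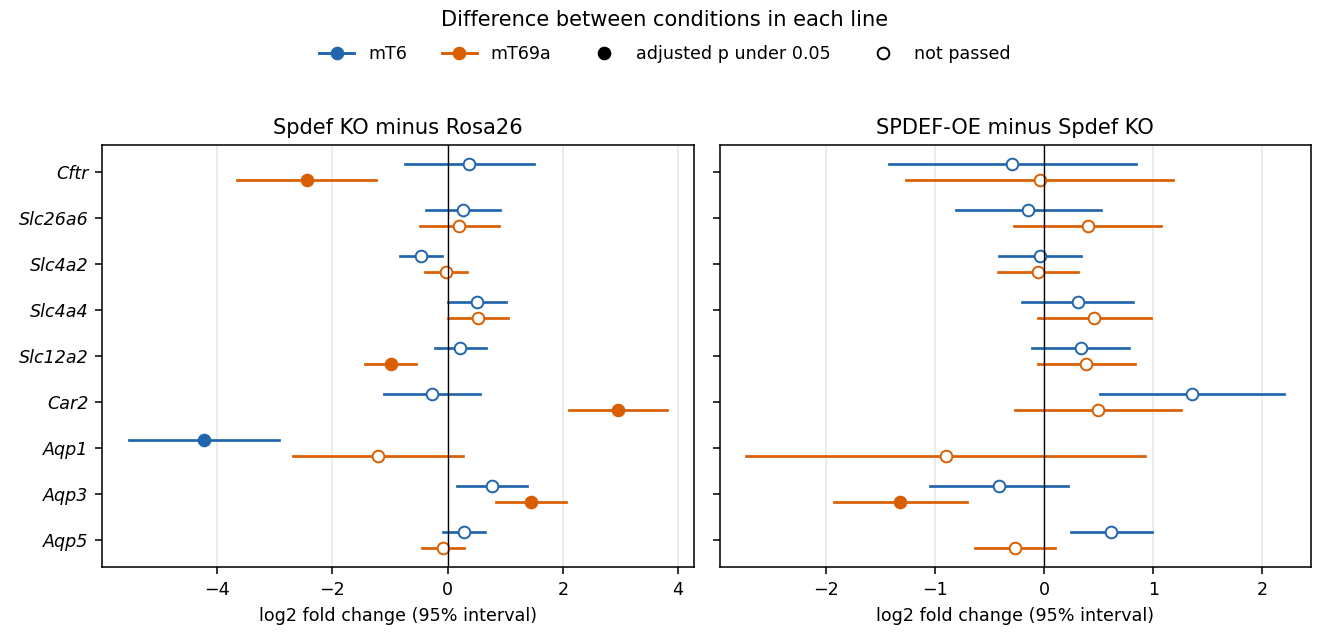
Log2 fold change of each gene with its 95% interval in knockout against control (left) and in SPDEF-OE against knockout (right), in mT6 and mT69a, from edgeR's quasi-likelihood fit; filled points passed the threshold. Left, Car2 at 2.96 and Cftr at -2.44 passed in mT69a while their mT6 values lie at -0.26 and 0.38. Aqp1 in mT6 is left out on the right, since its SPDEF-OE libraries held 2 counts in all.

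Other genes of duct secretion came from 8 lists of 114 genes, of which 74 passed the filter. In knockout against control, averaged over the lines, 3 rose, 6 fell and 65 did not pass, where 5.6% of all tested genes passed. In SPDEF-OE against knockout 9 rose, 16 fell and 49 did not pass, where 7.77% of all tested genes passed. The median log2 fold changes of the 74 were -0.01 and -0.04, against 0.00 and -0.02 over all genes tested. In the mT69a knockout 6 rose and 5 fell (8.6% of all genes passed), and in the mT6 knockout 1 rose and 3 fell (3.23%).

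Potassium channels and the sodium pump set the driving force for secretion. Of 10 measured genes of that list, 2 fell in the averaged knockout comparison, where 5.6% of all genes passed. Atp1b1, the beta subunit of the sodium pump, had 40.3 and 57.0 CPM in the mT6 knockout, against 159 and 185 CPM in its control, and 40.7 and 40.9 CPM in the mT69a knockout, against 76.9 and 84.3 CPM in its control. Its log2 fold change was -1.4 (SE 0.16, adjusted p = 0.000847), with no overlap in either line, and SPDEF-OE against knockout was at 0.12 (SE 0.16, adjusted p = 0.801). Kcne3, a potassium channel subunit of chloride-secreting epithelia, fell by 1.86 in the mT69a knockout (SE 0.27, adjusted p = 0.00203), where Cftr and Slc12a2 also fell. Its knockout change differed between the lines by -1.54 (SE 0.37, adjusted p = 0.0366). Kcnn4, a calcium-activated potassium channel, rose by 0.71 in the mT69a knockout (SE 0.15, adjusted p = 0.0178).

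Of 10 measured secretagogue receptors, 1 fell in the averaged knockout comparison, where 5.6% of all genes passed. Adora1, an adenosine receptor, fell by 3.05 (SE 0.30, adjusted p = 0.000231) and was at -0.25 in SPDEF-OE against knockout (SE 0.40, adjusted p = 0.828). Vipr1, the receptor for vasoactive intestinal peptide, had 22.4 and 53.2 CPM in the mT6 SPDEF-OE libraries, against 0.885 and 2.12 CPM in the knockout, and 45.8 and 46.7 CPM in the mT69a SPDEF-OE libraries, against 2.31 and 2.61 CPM in the knockout. It rose by 4.40 on average (SE 0.39, adjusted p = 0.000157). In that comparison 3 of the 10 receptors rose and 3 fell, where 7.77% of all genes passed. P2rx4, an ATP-gated channel, also rose, by 1.34 (SE 0.15, adjusted p = 0.000291). Slc9a3r2, a scaffold that binds CFTR and sodium-proton exchangers at the apical membrane, rose by 2.30 (SE 0.14, adjusted p = 8.77e-06). Of 23 cyclic AMP and scaffold genes, 2 rose and 4 fell there, where 7.77% of all genes passed.

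Of 12 measured genes of anion channels, exchangers and related proteins, 3 rose and 4 fell in SPDEF-OE against knockout (7.77% of all genes passed). In knockout against control 0 rose and 2 fell (5.6%). Clca1, a secreted modulator of a calcium-activated chloride channel, fell in both, by 1.35 (SE 0.14, adjusted p = 0.000398) in the knockout and by 1.28 (SE 0.15, adjusted p = 0.000564) in SPDEF-OE against knockout, each averaged over the lines. Its knockout change was -0.58 in mT69a (SE 0.21, adjusted p = 0.13) and -2.11 in mT6 (SE 0.20, adjusted p = 0.000601), and the lines differed by 1.52 (SE 0.28, adjusted p = 0.00994). Ano1, a calcium-activated chloride channel, was at -0.15 in the knockout (SE 0.10, adjusted p = 0.48) and fell by 0.72 in SPDEF-OE against knockout (SE 0.10, adjusted p = 0.00163). Of 9 measured sodium and bicarbonate transporters, 0 passed in the averaged knockout comparison (5.6% of all genes). In SPDEF-OE against knockout 1 rose and 2 fell (7.77%). Slc9a2, a sodium-proton exchanger, was one of those that fell (-1.01, SE 0.17, adjusted p = 0.00418), with -0.32 in mT69a (adjusted p = 0.605) and -1.70 in mT6 (adjusted p = 0.00461). Of 3 measured relatives of Slc12a2, only Slc12a7, a potassium-chloride cotransporter, passed in the averaged SPDEF-OE against knockout comparison (-0.80, SE 0.18, adjusted p = 0.0209). There, 7.77% of all genes passed. In the averaged knockout comparison 5.6% of all genes passed. Of 5 other carbonic anhydrases measured, Car5b, a mitochondrial form, rose in it (0.89, SE 0.10, adjusted p = 0.000468). Its change was 1.65 in mT69a (SE 0.14, adjusted p = 7.63e-05) and 0.14 in mT6 (SE 0.13, adjusted p = 0.69), and the lines differed by 1.51 (SE 0.19, adjusted p = 0.00148). Car13, a cytosolic form, passed in SPDEF-OE against control in mT69a (1.01, SE 0.23, adjusted p = 0.0177).

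The genes whose levels ran most like each member over the 12 libraries, after centring on the mean of each line, were ranked among 9264 protein-coding genes. For Cftr these were Sptlc2 (Pearson r = 0.968), Lgr4 (0.953) and Mettl7a1 (0.95), and for Car2 they were Rom1 (0.974), Adgrl3 (0.966) and Mpdz (0.957). Aqp1 ran most like Npas2 (0.974), Fdft1 (0.963) and Acat2 (0.959), and Aqp3 like Pdlim2 (0.903), S100a10 (0.902) and Il4ra (0.892). For Slc12a2 they were Galnt1 (0.96), Lmbr1 (0.942) and Ces2g (0.939), and for Slc4a4 Cd44 (0.943), Slc39a1 (0.938) and Dynlt3 (0.934). Aqp5 ran most like Anapc15 (0.934), Hdac2 (0.93) and Sorbs2 (0.907), and Slc4a2 like Man2b1 (0.948), Aldh3b1 (0.947) and Mboat7 (0.94). Between members, r was 0.809 for Cftr with Slc12a2, 0.848 for Aqp1 with Slc4a2 and -0.767 for Cftr with Car2. These 12 libraries form 6 groups of 2 and share line, clone and replicate number, so the coefficients are a description, and the highest of many coefficients is high by selection.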

How the data were processed

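RNA was measured in 12 libraries made with the TruSeq Stranded Total RNA kit, per the labels' protocols. The submitters' processing notes name FastQC 0.11.8, STAR 2.5.2b, RSEM 1.3.0 and GRCm38.p6. The annotation and strand setting of the counting are not given in the sources used here. The authors deposited expected counts and TPM per gene and per transcript, and per the file headers also the percent that each transcript makes of its gene. Expected counts were rounded to whole numbers for the tests (8.08% to 11.3% were not whole within 0.005). Identifiers were matched to GENCODE M21 without version (53620 of 53715; 51464 also had the same version), and the 95 left without a symbol took 0.0109% of counts. Depth was 9094295 to 28903831 counts per library, where 1 count is worth 0.0357 to 0.117 CPM.

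Genes left by filterByExpr (14473) were fitted with edgeR 4.0.16 (TMM factors 0.839 to 1.20, robust quasi-likelihood, 1 mean per group, biological coefficient of variation 19.2%, 6 residual degrees of freedom). The SE is the absolute log2 fold change over the square root of F. The 11 comparisons were contrasts of that fit. Nothing in the labels says that a group's libraries came from separate cultures; the p-values reflect the spread among these libraries alone, which may be technical. DESeq2 1.42.0 and limma 3.58.1 (on log2(TPM + 1)) in R 4.3.3 were alternatives, with Python 3.11.15, numpy 2.4.6, pandas 2.3.3 and matplotlib 3.10.9 for tables and figures. The script was tested on simulated data. Deviations of libraries with the same replicate number from their group means correlated in all 15 pairs of groups (0.205 to 0.531, median 0.282), which is where the pairing comes from. Intervals of count ratios are exact and cover counting error only.

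The 9 genes, the lists and the alternatives were chosen with earlier results of these data known. All 9 are named. Of the other lists, up to 3 genes each are named, those with the smallest adjusted p in any comparison and a mean of at least 1 CPM, and not all of them are described. The genes most alike are the 3 with the highest Pearson r among protein-coding genes with a mean of at least 5 CPM (log2 CPM with a prior count of 2). Slc26a6, under that level, was not ranked. Promoter windows came from a RefSeq table for GRCm38.p6. A few items of the labels and lists are not reported here.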

Additional observations from a re-analysis of the deposited data

Results flagged for a closer look

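The change of Car2 in knockout against control differed between the lines: the log2 fold change in mT69a less that in mT6 was 3.22 (SE 0.52, adjusted p = 0.00634). Both mT69a knockout libraries lay above both mT69a controls, while the mT6 groups overlapped. The change of Slc12a2 also differed, by -1.21 (SE 0.28, adjusted p = 0.0298), with both mT69a knockout libraries below their controls and both mT6 knockout libraries above theirs. The Car2 difference passed in every fit without 1 library, and the Slc12a2 difference did not pass in 8 of those 12 fits.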

How the results depend on the processing

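Of 1881 values of the 9 genes under alternatives (1188 of them without 1 library), 1763 kept their direction and their side of the threshold or stayed uncalled, 39 lost a call, 79 gained one and 0 reversed a call. The sign changed in 51 values that were uncalled in both fits. With DESeq2 and with no filter on low counts, the members past the threshold were 5 and 6 (3 in the reported fit) in knockout against control averaged over the lines, 3 and 3 (1) in SPDEF-OE against knockout averaged, 4 and 4 (2) for the difference between lines in knockout against control, and 3 and 3 (0) in SPDEF-OE against knockout in mT6. For SPDEF-OE against control they were 4 and 4 (2) in mT6 and 5 and 5 (3) in mT69a. With no filter, 2 (1) passed in the mT6 knockout. That fit also added Aqp1 in the mT69a knockout (adjusted p = 0.00821) and Cftr between the controls (adjusted p = 0.000368). With the replicate number as a block they were 5, 2, 2, 1, 5, 5, 3 and 4 in the 8 comparisons the report gives, in its order, and it changed no member's call beyond those printed in the report with a blocked value. In fits of the compared libraries alone, 3 passed in SPDEF-OE against knockout averaged (1025 of all genes) and 0 in the mT6 knockout (70). In those fits, 5 passed in SPDEF-OE against control in mT69a (2314 of all genes). With limma on log2(TPM + 1), 1 passed in SPDEF-OE against control in mT6 (539 of all genes). Leaving out single libraries also changed which members passed, including in knockout against control averaged over the lines. The number of all genes past the threshold in those fits is not given here, so these changes are not read as a result about the 9 genes. A lone library left in a group is assumed to vary like the other groups. Size factors of DESeq2 in edgeR changed no member's call. Over all genes, the averaged knockout comparison called 810, with 2171 under the block, 1555 without the filter, 1027 with DESeq2 and 429 with limma. SPDEF-OE against knockout averaged called 1125, with 2293, 1740, 1283 and 593. In the other comparisons the block called up to 27.5 times as many, in the one with 2 calls. With DESeq2 and with no filter, 1128 and 1577 genes (958 in the reported fit) passed for the line difference in knockout against control. In SPDEF-OE against knockout in mT6 it was 575 and 950 (389). For SPDEF-OE against control it was 1371 and 1887 (1245) in mT6 and 1868 and 2325 (1791) in mT69a. With no filter, 1089 (468) passed in the mT6 knockout, 1813 (1244) in the mT69a knockout and 4498 (4078) between the controls. The causes of these shifts were not tested. Depth limits Aqp1 in mT69a (6 to 44 counts per library) and Slc26a6 (20 to 73).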
